A study of Mus musculus with 8 samples.

Results

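Potassium channels are membrane proteins with a pore that passes potassium ions, and their genes were taken as all those whose symbol begins with Kcn. Of the 18193 genes that the array measured with a single symbol, 84 met this rule, through 167 probe sets, and the probe set with the highest mean over all arrays stood for each gene. They comprised 31 voltage-gated pore subunits, 15 inward rectifiers, 12 leak channels of the Kcnk family, 8 calcium- or sodium-activated channels, 15 accessory subunits and 3 noncoding RNAs named after a channel gene. The tissue was choroid plexus dissected from the fourth ventricle of mouse embryos on a mixed strain background at embryonic day 13. In one group 4 arrays carried the label Otx2 k.o., for embryos of an Otx2 deficient strain, and in the other 4 arrays carried the label Wildtype, for embryos of the same litters. No treatment was given and sex was not determined. The labels give each array as a biological replicate but do not name the deleted part of Otx2, a Cre driver or the number of embryos in a sample.

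In the choroid plexus a sheet of epithelial cells secretes cerebrospinal fluid into the ventricle and takes part in keeping its potassium concentration low. The sodium-potassium pump of the apical membrane brings potassium into the cell, and potassium leaves again through channels and chloride-coupled transporters, which also sets the membrane voltage that drives ion secretion. Pore subunits form the channel, while KCNE, KCNIP and beta subunits bind to it and change its gating or its place in the membrane.

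Otx2, the homeodomain transcription factor named in the labels, read 12.38, 12.46, 12.44 and 12.48 log2 units in the knockout-labelled arrays and between 11.85 and 12.05 in the 4 wildtype arrays. Its transcript signal was therefore higher, by 0.47 log2 units (limma, adjusted p = 0.000648), in the arrays labelled as lacking it. Where its probes lie relative to the deletion is not known here, so this reading checks nothing if they lie outside it. Directions below rest on the labels, and the arrays are called knockout-labelled. Array medians lay between 5.85 and 5.90 log2 units.

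Of the 84 genes, 6 were higher and 8 were lower in the knockout-labelled arrays at an adjusted p under 0.05 (limma, Benjamini-Hochberg adjusted over all 18193 genes). This share of 16.7% stands beside 19.6% of all genes tested. By direction, 7.14% of the channel genes were higher, against 7.84% of all genes, and 9.52% were lower, against 11.7%. The median log2 fold change was 0.01 for the channel genes and 0.00 for all genes. The groups of arrays did not overlap in 15 of the channel genes, with the knockout-labelled arrays on top in 6 and below in 9, against 24.3% of all genes (9.98% higher and 14.4% lower). Channel genes were thus called about as often as genes at large, and the differences lay in single members. The lowest log2 fold change was that of Kcnj3 (-1.80) and the highest that of Kcnk2 (1.98). A call with a fold change of at least 2 was reached by Kcnj3, Kcne3 and Kcnk2, 3 of 84 genes, against 1.8% of all genes; the first 2 of these were dim in the knockout-labelled arrays. In whole tissue, fewer cells of a type and less RNA per cell cannot be told apart.

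**Figure D1:**
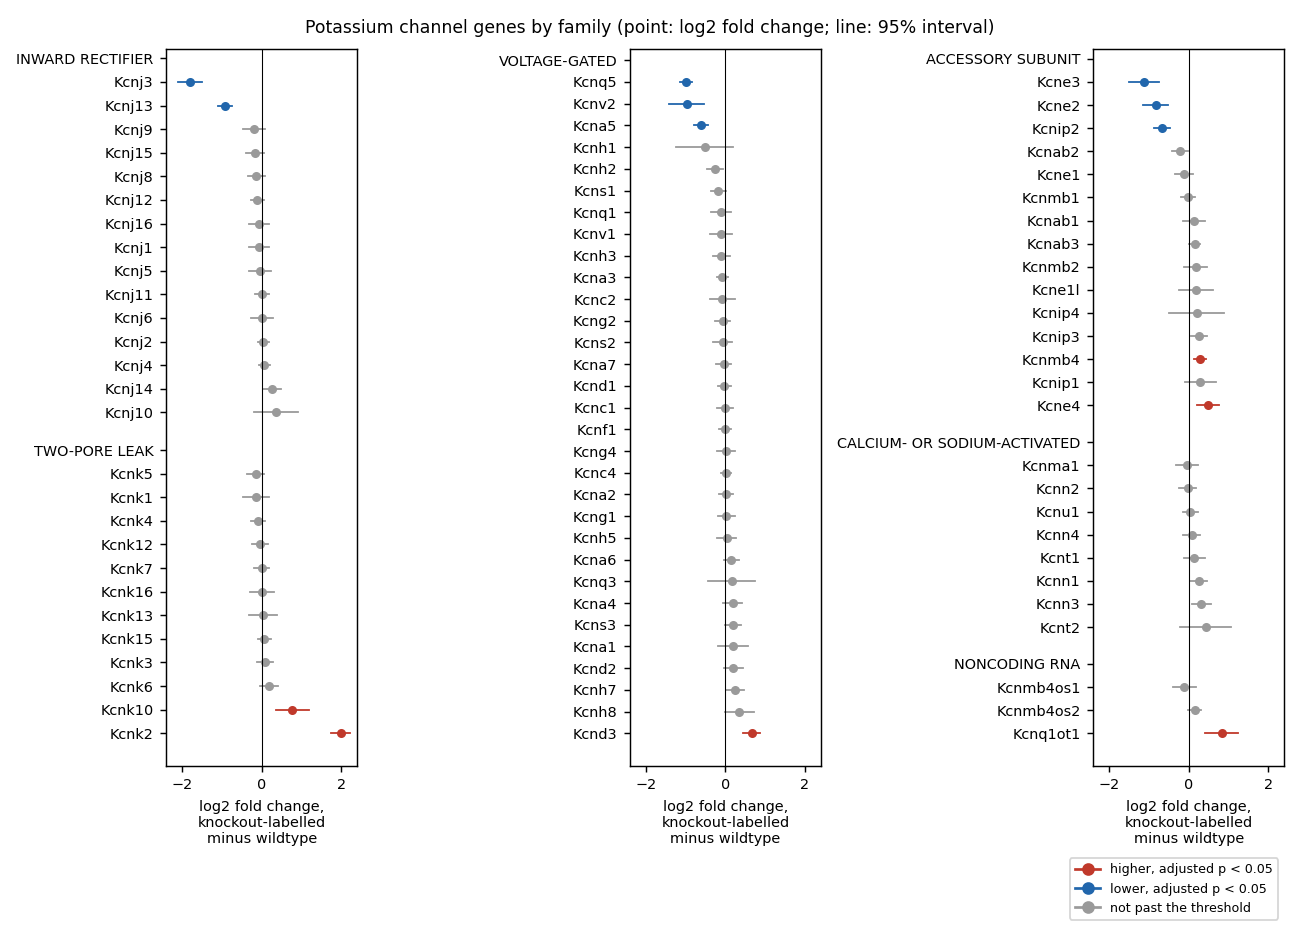
Log2 fold change (knockout-labelled minus wildtype, horizontal axis) of all 84 potassium channel genes by family, with 95% intervals from limma over 4 arrays a group; red and blue mark genes higher and lower at an adjusted p under 0.05. The 8 genes that were lower lie among inward rectifiers, voltage-gated and accessory subunits, and Kcnk2 (1.98) and Kcnj3 (-1.80) mark the ends of the range.

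The genes at the ends of the range, and the pair known as the abundant potassium channel genes of choroid plexus epithelium (Kcnj13 and Kcne2), are shown by the sequence around their transcription starts, 250 bases before to 50 bases after, as RefSeq gives it on GRCm38.p6 and 5′ to 3′ on the gene's strand. Capitals mark TAAT on either strand, the core letters bound by many homeodomain proteins; overlapping matches are merged. Kcnj13 has 1 listed start, at chr1:87394680-87394979 on the minus strand. Kcne2 has 2, at chr16:92292139-92292438 and chr16:92295366-92295665 on the plus strand. Kcnj3 has 1, at chr2:55435720-55436019 on the plus strand, and of the 4 starts of Kcnk2 the most upstream is shown, at chr1:189402224-189402523 on the minus strand.
Kcnj13: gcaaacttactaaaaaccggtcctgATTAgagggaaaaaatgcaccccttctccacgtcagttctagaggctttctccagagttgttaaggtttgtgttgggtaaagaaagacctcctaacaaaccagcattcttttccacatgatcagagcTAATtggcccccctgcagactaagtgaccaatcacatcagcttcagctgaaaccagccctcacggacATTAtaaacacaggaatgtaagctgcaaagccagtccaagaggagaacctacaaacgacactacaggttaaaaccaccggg
Kcne2, first start: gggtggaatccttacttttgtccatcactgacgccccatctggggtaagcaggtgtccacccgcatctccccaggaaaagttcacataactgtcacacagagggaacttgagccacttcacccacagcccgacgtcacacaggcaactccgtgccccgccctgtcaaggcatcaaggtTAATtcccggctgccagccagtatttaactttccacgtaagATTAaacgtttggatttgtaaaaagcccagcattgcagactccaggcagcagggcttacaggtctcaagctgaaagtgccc
Kcne2, second start: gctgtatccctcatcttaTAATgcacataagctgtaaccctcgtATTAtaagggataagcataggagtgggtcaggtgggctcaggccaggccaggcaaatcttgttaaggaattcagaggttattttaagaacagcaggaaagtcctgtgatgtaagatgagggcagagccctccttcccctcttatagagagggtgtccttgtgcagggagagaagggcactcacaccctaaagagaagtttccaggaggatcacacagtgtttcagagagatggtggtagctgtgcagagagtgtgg
Kcnj3: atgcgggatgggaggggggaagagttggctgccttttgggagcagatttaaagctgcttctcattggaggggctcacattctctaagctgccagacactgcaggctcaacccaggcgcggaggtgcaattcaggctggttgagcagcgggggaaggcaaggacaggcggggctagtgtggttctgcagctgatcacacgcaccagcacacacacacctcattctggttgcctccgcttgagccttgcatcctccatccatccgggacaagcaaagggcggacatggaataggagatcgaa
Kcnk2, first start: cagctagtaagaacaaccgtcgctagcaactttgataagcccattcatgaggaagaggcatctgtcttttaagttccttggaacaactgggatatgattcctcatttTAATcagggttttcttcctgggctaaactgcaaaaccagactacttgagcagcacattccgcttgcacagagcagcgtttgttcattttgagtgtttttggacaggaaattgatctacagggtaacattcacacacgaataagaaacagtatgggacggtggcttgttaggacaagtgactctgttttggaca

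The Kcnj13 stretch holds 3 such cores, each Kcne2 stretch holds 2, the Kcnk2 stretch holds 1 and the Kcnj3 stretch holds 0. The longer motif TAATCC, the core letters of bicoid-type homeodomain proteins such as Otx2, was searched on both strands (GGATTA on the other). It was in 0 of the 20 listed starts of 13 called genes and in 2 of 89 starts of 64 channel genes that had an entry, against 7.06% of all 32851 promoters of the same length. TAAT was in 45.0% of the called genes' starts, in 49.4% of those of the channel genes and in 58.0% of all promoters. These matches describe the letters in a window of 300 bases and say nothing of binding. G and C made up 57.7% of the Kcnj3 stretch, 46.0% of that of Kcnj13 and 43.0% of that of Kcnk2, against a median of 52.7% over all promoters. The 3 other Kcnk2 starts held 54.7%, 74.7% and 68.7%.

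Inward rectifiers are channels that pass potassium into the cell more easily than out and hold the resting voltage. Of 15 such genes, 2 were lower and 0 were higher in the limma test (13.3% called, against 19.6% of all genes). An unadjusted p under 0.05 was reached by 3, against 31.1% of all genes. Kcnj13, whose channel is known from the apical membrane of choroid plexus and retinal pigment epithelium, read 12.17, 12.30, 12.16 and 12.29 log2 units in the wildtype arrays. In the knockout-labelled arrays it read 11.13, 11.39, 11.33 and 11.38, so that the groups lay apart by more than the range within either. The difference was -0.92 log2 units (SE 0.08, 1.89-fold lower, adjusted p = 4.56e-05). Kcnj3, a subunit of the G-protein-gated channel of heart and neurons, read 5.92, 6.02, 6.23 and 6.35 in wildtype and 4.09, 4.15, 4.54 and 4.53 in knockout-labelled arrays. Every knockout-labelled array was below every wildtype array, and the difference was -1.80 (SE 0.13, adjusted p = 2.58e-05). The knockout-labelled level is dim and cannot be separated from background here, so that the size is that of the measured signal alone. A second Kcnj3 probe set was lower by a log2 fold change of -1.04, and the other pair, at -0.21 and -0.13, did not pass. With the mean of its 4 probe sets Kcnj3 was at -0.79 (limma, adjusted p = 3.61e-05).

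The partners with which the Kcnj3 product forms channels did not pass with their brightest probe sets. Kcnj5 was at -0.04, Kcnj6 at 0.01 and Kcnj9 at -0.19 on the log2 scale, with 95% intervals of -0.32 to 0.24, -0.26 to 0.28 and -0.46 to 0.08. A dimmer Kcnj9 probe set was lower, at -0.31 (limma, adjusted p = 0.0489 over all single-gene probe sets), and its other 2, at -0.06 and -0.11, did not pass. Kcnj11 and Kcnj8 encode the pores of ATP-sensitive channels, which assemble with the sulfonylurea receptors Abcc8 and Abcc9. Kcnj11 was at 0.00 (95% interval -0.18 to 0.18) and Kcnj8 at -0.14 (-0.35 to 0.08). Kcnj8 read 8.04, 8.20, 7.97 and 8.20 in wildtype and 8.01, 7.72, 8.07 and 8.07 in knockout-labelled arrays, which overlap. Of the receptors, Abcc8 was higher by 0.54 (limma, adjusted p = 0.00178) and Abcc9, also a pericyte marker, was lower, at a log2 fold change of -0.45 (adjusted p = 0.00276). Abcc8 averaged 4.66 in wildtype and 5.20 in knockout-labelled arrays, a dim level that cannot be separated from background here.

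Kcnj10, the glial inward rectifier, ranged from 6.85 to 7.62 in knockout-labelled arrays and from 6.25 to 7.41 in wildtype arrays. Its log2 fold change of 0.36 did not pass (limma, adjusted p = 0.378, 95% interval -0.20 to 0.92). Kcnj2, a rectifier of muscle, vessels and macrophages, read between 2.54 and 2.74 in all 8 arrays, at a log2 fold change of 0.04. That level is dim and cannot be separated from background here, so it does not show a steady level of Kcnj2 RNA. The 13 inward rectifiers that did not pass lay between -0.19 and 0.36.

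The Kcnk family makes leak channels that are open at rest. Of its 12 genes, 2 were higher and 0 lower by limma (16.7% called, against 19.6% of all genes). An unadjusted p under 0.05 was reached by 2, against 31.1% of all genes. Kcnk2, the Trek leak channel opened by membrane stretch and lipids, read 7.66, 7.61, 7.65 and 7.87 log2 units in wildtype arrays and 9.52, 9.51, 9.89 and 9.78 in knockout-labelled arrays. The lowest knockout-labelled array lay above the highest wildtype array by more than either group's range. Kcnk2 was thus higher by 1.98 (SE 0.10, 3.93-fold, adjusted p = 4.89e-06), through its only probe set. Kcnk10, a close relative of Kcnk2 in the same Trek group, read 4.38, 4.43, 4.13 and 3.98 in wildtype and 4.73, 5.45, 4.61 and 5.18 in knockout-labelled arrays. Its log2 fold change was 0.76 (SE 0.18, adjusted p = 0.0172), at a dim level that cannot be separated from background here, so that no linear fold is given. With the mean of its 2 probe sets the value was 0.48 (limma, adjusted p = 0.0288). The call was lost without wildtype replicate 3 (adjusted p = 0.0535) and without wildtype replicate 4 (adjusted p = 0.0538), and its second probe set, at 0.20, did not pass. Kcnk4, the third member of that group, was at -0.10 and did not pass.

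Kcnk1, a weak leak channel of epithelia and brain, read 8.12, 8.21, 8.18 and 8.40 in wildtype and 8.01, 7.72, 8.50 and 8.10 in knockout-labelled arrays. The groups overlapped, and the log2 fold change of -0.15 had a 95% interval of -0.47 to 0.18. The 10 leak channel genes that did not pass lay between -0.15 and 0.18.

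**Figure D2:**
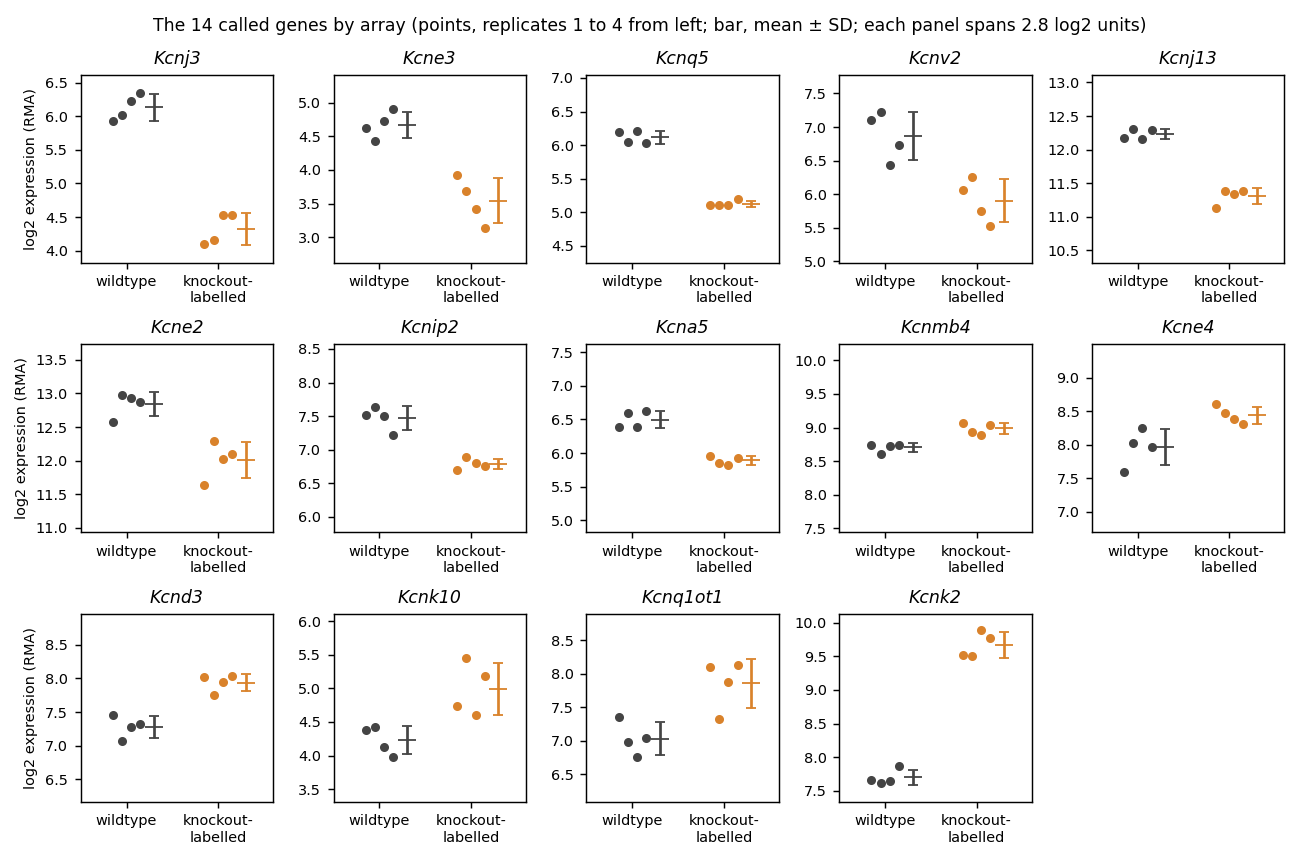
Log2 expression (RMA, vertical axis) of the 14 called genes in each of 4 wildtype and 4 knockout-labelled arrays, with the mean ± SD beside the points; every panel spans the same range. The groups lie apart in 13 panels and overlap in that of Kcnq1ot1, where the lowest knockout-labelled array read 7.33 and the highest wildtype array 7.35.

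Voltage-gated pore subunits open when the membrane is depolarised. Of 31 such genes 1 was higher and 3 were lower by limma (12.9% called, against 19.6% of all genes). Kcnq5, a subunit of slowly opening channels, read 6.19, 6.04, 6.21 and 6.03 in wildtype and 5.11, 5.10, 5.10 and 5.19 in knockout-labelled arrays. The difference was -0.99 (SE 0.07, limma adjusted p = 1.66e-05). The knockout-labelled level is dim and cannot be separated from background here, so that no linear fold is given. The other 2 Kcnq5 probe sets were at -0.18 and -0.08 and did not pass, and the mean of its probe sets gave -0.42 (limma, adjusted p = 0.000529). Kcnv2, a silent subunit that modifies other channels and is known from photoreceptors, read 7.11, 7.22, 6.44 and 6.73 in wildtype and 6.06, 6.25, 5.75 and 5.53 in knockout-labelled arrays. The highest knockout-labelled array and the lowest wildtype array were close, and the log2 fold change was -0.97 (SE 0.20, adjusted p = 0.00736). Kcna5, a subunit of delayed rectifier channels of heart and vessels, fell from 6.50 ± 0.13 to 5.89 ± 0.07 log2 units (SD, n = 4 each), with wildtype arrays at 6.39, 6.59, 6.39 and 6.63 and knockout-labelled ones at 5.96, 5.85, 5.82 and 5.93. Its log2 fold change was -0.61 (SE 0.08, limma adjusted p = 0.000476).

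Kcnd3, a subunit of fast transient channels, was the voltage-gated gene that was higher. It read 7.46, 7.06, 7.28 and 7.32 in wildtype and 8.02, 7.75, 7.95 and 8.03 in knockout-labelled arrays, a log2 fold change of 0.66 (SE 0.10, 1.58-fold, adjusted p = 0.00120). Its other 3 probe sets were at -0.19, 0.25 and -0.11 and did not pass, and with the mean of its 4 probe sets the value was 0.15 and the call was lost (limma, adjusted p = 0.0652).

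Kcna1 and Kcna3, voltage-gated subunits described in choroid plexus epithelium, did not pass with the brightest probe set. Kcna1 read 5.59, 5.77, 5.72 and 5.51 in wildtype and 6.32, 5.93, 5.70 and 5.40 in knockout-labelled arrays, so that the knockout-labelled group held both the highest and the lowest value (log2 fold change 0.19, 95% interval -0.19 to 0.56). A dimmer Kcna1 probe set was higher by 0.59 (limma, adjusted p = 0.0195 over all single-gene probe sets), and the other pair, at 0.19 and -0.03, did not pass. Kcna3 lay between 4.44 and 4.64 in all 8 arrays (-0.08, 95% interval -0.22 to 0.05), a dim level that cannot be separated from background here. Kcnh2, the cardiac repolarisation channel gene, was lower in every knockout-labelled array than in every wildtype array, at 7.21, 7.57, 7.56 and 7.41 against 7.61, 7.67, 7.70 and 7.79, but did not pass (log2 fold change -0.25, limma adjusted p = 0.0738). The 27 voltage-gated genes that did not pass lay between -0.52 and 0.35.

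Of the 8 calcium- or sodium-activated channel genes, which couple potassium flow to cell signals, 0 passed in the limma test, against 19.6% of all genes. An unadjusted p under 0.05 was reached by 2 of them, against 31.1% of all genes. Their log2 fold changes lay between -0.05 and 0.42. Kcnma1, the pore of the large-conductance channel, was at -0.05 (95% interval -0.32 to 0.22). Kcnn3, a small-conductance channel gene, was at 0.31 (limma, adjusted p = 0.0612, and a call with the replicate number as a block).

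Accessory subunits held 5 calls among 15 genes, 2 higher and 3 lower (33.3% called by limma, against 19.6% of all genes). Kcne2, a single-span subunit that joins Kcnq1 and Kcna3 in choroid plexus epithelium, read 12.57, 12.98, 12.94 and 12.88 log2 units in wildtype arrays. In the knockout-labelled arrays it read 11.64, 12.29, 12.03 and 12.09, all below the wildtype range, with replicate 1 the lowest of each group. The difference was -0.83 (SE 0.14, 1.78-fold lower, adjusted p = 0.00255). Kcnq1, the pore subunit of that pair, read 5.90, 6.14, 6.43 and 6.17 in wildtype and 6.02, 5.92, 6.26 and 6.00 in knockout-labelled arrays, which overlap (-0.11, 95% interval -0.37 to 0.15). Kcne3, which holds Kcnq1 channels open in other epithelia, went from 4.63, 4.42, 4.73 and 4.90 to 3.92, 3.69, 3.42 and 3.14. Its log2 fold change was -1.13 (SE 0.16, adjusted p = 0.00111), at a dim level in both groups that cannot be separated from background here.

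Kcne4, an inhibitory relative, was on the other side. It read 7.60, 8.03, 8.24 and 7.97 in wildtype and 8.60, 8.47, 8.39 and 8.30 in knockout-labelled arrays, a difference of 0.48 on the log2 scale (SE 0.13, adjusted p = 0.0271). With the replicate number as a block its adjusted p was 0.0550, and the call was also lost without knockout-labelled replicate 1 (adjusted p = 0.0797), wildtype replicate 2 (0.0523) or wildtype replicate 4 (0.0634). The other measured KCNE genes, Kcne1 (-0.11) and Kcne1l (0.19), did not pass.

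Kcnip2, a calcium-binding subunit that carries Kcnd channels to the surface, read 7.52, 7.63, 7.50 and 7.21 in wildtype and 6.70, 6.89, 6.81 and 6.75 in knockout-labelled arrays. Its log2 fold change was -0.68 (SE 0.09, adjusted p = 0.000763), while the pore gene Kcnd3 was higher. A second Kcnip2 probe set was also lower, at -0.52, and the third was at -0.01 and did not pass. Mean values of its probe sets gave -0.40. Kcnip1, Kcnip3 and Kcnip4 were at 0.29, 0.26 and 0.19 and did not pass with their brightest probe sets. Of the other 3 probe sets of Kcnip1, 2 passed, at 0.31 and 0.48 (limma, adjusted p = 0.0455 and 0.0432 over all single-gene probe sets), and the third was at 0.02. Kcnmb4, a beta subunit of the channel whose pore is Kcnma1, was higher by 0.28 (SE 0.06, adjusted p = 0.0131), with wildtype arrays at 8.74, 8.61, 8.73 and 8.74 and knockout-labelled ones at 9.07, 8.94, 8.90 and 9.03. The groups were apart, but this was the smallest difference among the 14 calls.

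Of the 3 noncoding RNAs, Kcnq1ot1, an imprinted transcript that runs opposite to Kcnq1 and is known to silence neighbouring genes on the same chromosome, was higher. It read 7.35, 6.98, 6.77 and 7.04 in wildtype and 8.09, 7.33, 7.88 and 8.13 in knockout-labelled arrays, where replicate 2 lay within the wildtype range. The log2 fold change was 0.82 (SE 0.18, 1.77-fold, adjusted p = 0.0118), and it was 1.00 without that array (adjusted p = 0.000824). Among its other 5 probe sets, 2 passed in the same direction (0.80 and 0.86), and those at 0.69, 0.42 and -0.10 did not. Kcnmb4os1 and Kcnmb4os2, transcribed opposite to Kcnmb4, were at -0.11 and 0.14 and did not pass. The strand that these probes read was not checked here.

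In 3 of the 40 uncalled genes with several probe sets (Kcna1, Kcnip1 and Kcnj9) another probe set passed. The same count was not made over all genes, so whether it is high or low for this series is not known. Of the 70 channel genes that did not pass, 65 had a log2 fold change under 0.3 in size, and in 60 of them the whole 95% interval lay within 0.5 of 0. For these 60 genes the interval covered only differences below that size, on a scale where RMA compresses dim signals. The mean of 47 channel genes lay under the median of all probe sets (5.88 log2 units), and 4 of these were called. Of all 5939 genes under that median, 311 were called. Over the 37 channel genes above that median, fitted with the other genes above it, 11 were called (29.7%), against 31.3% of all such genes.

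The genes that work beside the channels moved both ways. Of 17 measured genes for the sodium-potassium pump, related pumps, their FXYD subunits and cation-chloride transporters, 2 were higher and 5 were lower. By limma 41.2% of this list was called, against 19.6% of all genes. The share higher was 11.8%, against 7.84%, and the share lower was 29.4%, against 11.7%. The median log2 fold change of the list was -0.04. Atp1b1, a beta subunit of the pump, fell from 10.50 ± 0.03 to 9.48 ± 0.08 log2 units (SD, n = 4 each, 2.03-fold, limma adjusted p = 9.96e-06). Slc12a2, the sodium-potassium-chloride cotransporter of the apical membrane, was at -0.56, the potassium-chloride cotransporter Slc12a4 at -0.44, Atp1b2 at -0.36 and the pump subunit Fxyd1 at -0.46, all past the threshold. Atp1b3 rose by 0.24 and Fxyd6 by 0.55, and with the replicate number as a block the adjusted p of Atp1b3 was 0.0503.

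Of 19 measured channel partners and regulators, 1 was higher (Abcc8, at a dim level) and 4 were lower, with a median of 0.02. These calls were 5.26% and 21.1% of the list, against 7.84% and 11.7% of all genes. Sgk1, a kinase that raises the surface level of several channels, was lower in all 4 knockout-labelled arrays, at a log2 fold change of -0.88 (1.84-fold, limma adjusted p = 0.000178). The inositol transporter Slc5a3, which binds Kcnq channels, was at -0.51 and Stk39, the kinase that activates Slc12a2, at -0.32. Dpp6, which joins Kcnd channels with the KCNIP subunits, was at -0.27 and did not pass (adjusted p = 0.138).

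**Figure D3:**
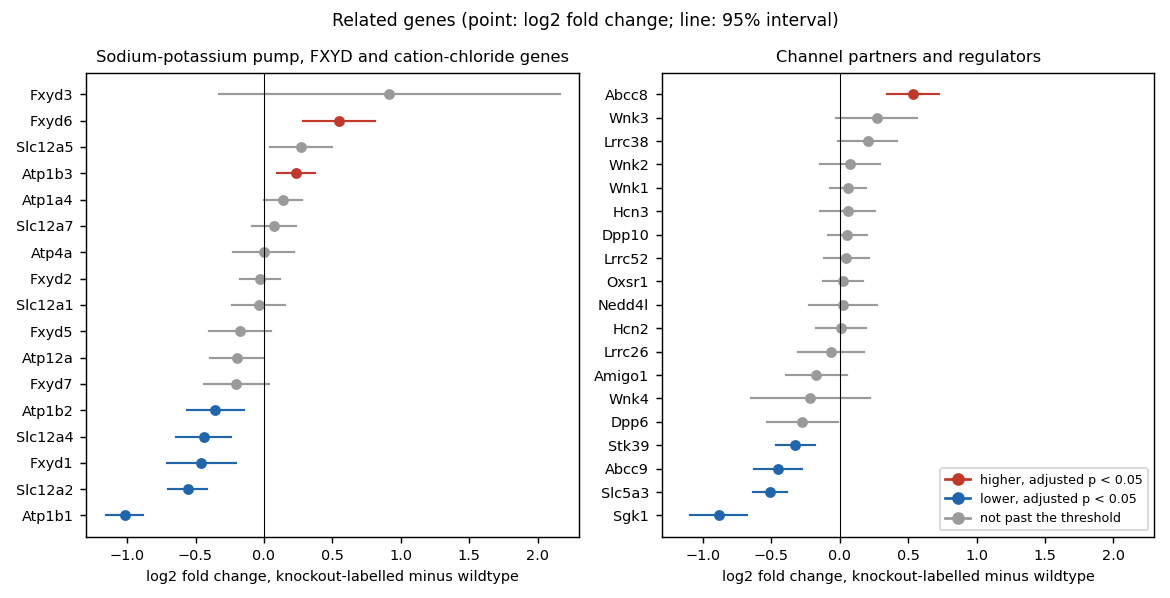
Log2 fold change (knockout-labelled minus wildtype, horizontal axis) with 95% intervals for 17 genes of pumps, FXYD subunits and cation-chloride transporters (left) and 19 channel partners and regulators (right). Atp1b1 (-1.02) and Sgk1 (-0.88) lie lowest in their panels, and Fxyd3, the highest point, did not pass.

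Marker genes of the cell types in the tissue differed between the same arrays. The counts for each list, here and below, stand beside 7.84% of all genes higher and 11.7% lower. Of 14 measured choroid plexus epithelium markers, 12 were lower and 1, Otx2 itself, was higher. Ttr did not pass, at a log2 fold change of -0.05 (limma, adjusted p = 0.647). It averaged 14.17 log2 units in knockout-labelled and 14.21 in wildtype arrays. Differences are compressed at so bright a level, so an unchanged amount of Ttr RNA is not shown. The mean of the epithelial list lay between 9.76 and 9.96 log2 units in knockout-labelled arrays against 10.87 to 10.99 in wildtype arrays. Of 11 markers of multiciliated cells 9 were lower. Of 12 stroma markers 11 were higher, with array means of 10.90 to 11.21 against 10.38 to 10.47, and of 14 macrophage markers 10 were higher, with means of 9.04 to 9.53 against 8.47 to 8.70. Kcnj13 and Kcne2 at -0.92 and -0.83 thus stood beside medians of -1.11 for the epithelial and -0.91 for the multiciliated cell markers. Both lists may read the same cells, which was not tested, so they are not separate comparisons. Kcnk2 at 1.98 stood beside medians of 0.62 for stroma and 0.59 for macrophages. The medians were 0.34 for neural progenitors, 0.30 for neurons and 0.15 for pericytes and smooth muscle. Endothelium was at -0.11 and erythroid cells at -0.14. The part of these cell types in the channel results was not tested.

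Pericyte and smooth muscle markers were higher in 4 and lower in 2 of 10 genes, with array means of 8.29 to 8.55 in knockout-labelled and 8.11 to 8.18 in wildtype arrays. Of 12 endothelial markers 1 was higher and 3 were lower (8.69 to 8.94 against 8.85 to 9.06), and of 9 erythroid markers 1 was lower (8.55 to 8.89 against 8.79 to 8.92). Neuron markers varied most between arrays of one group, from 7.42 to 8.79 in knockout-labelled and from 6.88 to 8.48 in wildtype arrays, with the highest values in knockout-labelled replicate 2 and wildtype replicate 1. Of 16 such markers 1 was higher, the GABA synthesis gene Gad1, and of 11 neural progenitor markers 3 were higher. With the mean of the neuron list as a covariate, chosen after seeing the data, all 14 channel calls were kept, and Kcnk10 was at 0.63 (limma, adjusted p = 0.00802) and Kcnj3 at -1.71 (adjusted p = 2.41e-05). The neuron means of the groups overlapped, and no list whose means lay apart was used as a covariate.

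**Figure D4:**
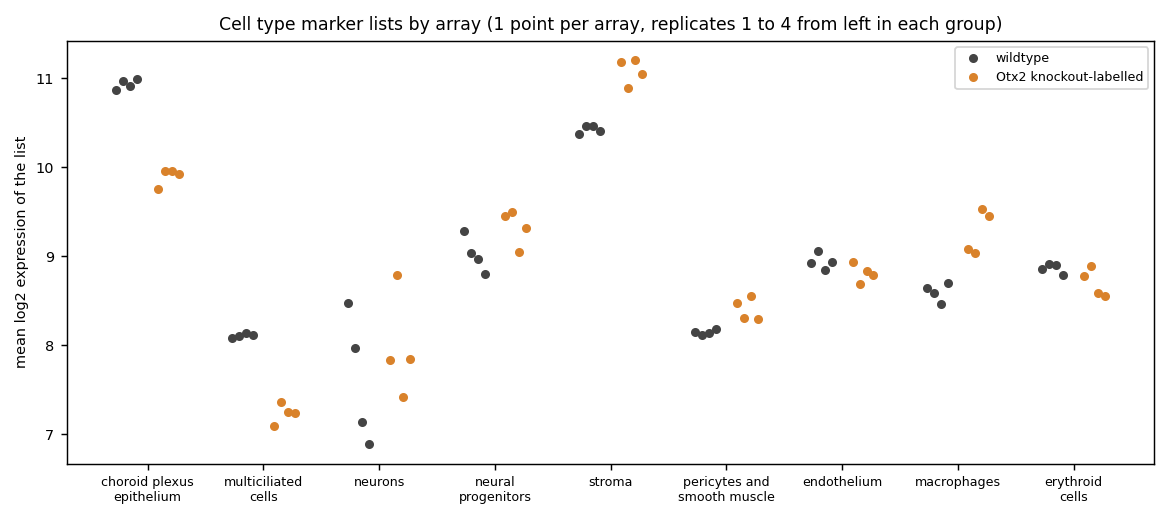
Mean log2 expression (vertical axis) of 9 cell type marker lists in each array, wildtype in grey and knockout-labelled in orange. Epithelial and multiciliated cell means are lower in all 4 knockout-labelled arrays. Stroma, macrophage, and pericyte and smooth muscle means are higher in all 4. The neuron means of the groups overlap and range from 6.88 to 8.79.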

How the data were processed

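The deposited values are log2 expression levels, which the authors made with RMA, as the submitters' processing notes state. RMA subtracts background, gives the arrays a common distribution and combines each set's probes, so a change in total RNA per cell cannot be seen and bright and dim differences are compressed. The RMA software: not given in the sources used here. Detection calls are not analysed here, and the number of arrays limits the precision.

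The platform annotation named 1 gene for 34945 of 45101 probe sets and several for 932, and the other 9224 had no listed gene or were controls. All 84 channel symbols matched the RefSeq table by gene identifier. All 18193 genes were fitted with limma 3.58.1 in R 4.3.3 (lmFit, eBayes, two-sided, genotype only, no filter), with Benjamini-Hochberg adjusted p-values over all genes and calls under 0.05. Fold changes are knockout-labelled minus wildtype. The p-values set the difference between the groups against the spread of arrays within a group, which limma combines with that of all genes. They cover these 8 arrays only. In simulated data with 18193 genes and 200 changed, this fit recovered 61.0% of changes of 0.5 and 89.0% of changes of 1 log2 unit. In the data 3557 genes were called, so the adjusted threshold falls at a different unadjusted p. The recovery rates therefore do not apply directly to this comparison.

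The members and gene lists were chosen with earlier results of these data known. The text names every called channel gene and, called or not, 10 listed genes known in choroid plexus or its vessels and macrophages, 21 genes in all since 3 of the 10 were called; other channel genes were named after their values were seen, as family members or partners.

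Groups shared replicate numbers. After removal of the group means, arrays that shared a number correlated over the genes at 0.131, 0.232, 0.160 and 0.223, each above the 0.1 taken as the limit, while the 12 other pairs ranged from -0.296 to 0.294. By that limit the numbers were taken to pair the arrays in 1 alternative, with that number as a block. No label says what a number marks.

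Alternatives were that block, leaving out each array, the mean of probe sets, no shared probe sets, genes above the median level, arrays centred on medians, quantile normalization again, a trended robust prior, array weights and other thresholds. A neuron covariate was added after seeing the data.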

Additional observations from a re-analysis of the deposited data

Results flagged for a closer look

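In 21 named channel genes each group of 4 arrays was examined for a single array far from the others, 42 groups in all, of which chance flags about 5%. There were 2 such arrays. Kcnmb4 read 8.61 log2 units in wildtype replicate 2, below the other wildtype arrays at 8.73 to 8.74. Kcnq5 read 5.19 in knockout-labelled replicate 4, above the other knockout-labelled arrays at 5.10 to 5.11. Both genes kept their calls in every fit that left out 1 array (limma, adjusted p up to 0.0462 for Kcnmb4 and up to 0.000134 for Kcnq5).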

How the results depend on the processing

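No named channel gene with a call reversed its direction in the 17 refits, and 11 of the 14 kept the call in every refit that tested them. The exceptions were Kcne4, Kcnk10 and Kcnd3, with values beside their results. Leaving out 1 array gave 4 to 7 channel genes higher and 8 to 9 lower, with 14.6% to 21.6% of all genes called. With the replicate number as a block, 7 were higher and 8 lower, which was 17.9% of the channel genes against 20.1% of all genes. In that fit Kcnj14 and Kcnn3 gained a call, and Kcne4 was the only one of the 14 to lose it. At an adjusted p under 0.01, 2 were higher and 8 lower (Kcne4, Kcnk10, Kcnmb4 and Kcnq1ot1 were lost). This was 11.9% of the channel genes, against 10.7% of all genes. Kcne3, Kcnj3, Kcnk10 and Kcnq5 lay under the level filter and were not tested in that fit. Centring arrays on their medians moved the median of all genes to -0.03 and kept all 14 calls. The mean of probe sets moved Kcnj3 from -1.80 to -0.79, Kcnq5 from -0.99 to -0.42, Kcnip2 from -0.68 to -0.40 and Kcnk10 from 0.76 to 0.48; the cause was not tested. The 7 listed genes without a call gained none in any refit.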

Other observations

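Among channel genes without a call, a few varied widely within a group, and they were picked here for that spread after their values were seen. Kcnh1, a voltage-gated subunit of the ether-a-go-go group, read 7.16 log2 units in wildtype replicate 3, while the other wildtype arrays read 5.57, 5.65 and 5.69 and the knockout-labelled ones 5.31 to 5.67. Its log2 fold change of -0.52 was the lowest among uncalled members. Kcnt2, a sodium-activated channel gene, read 5.06, 4.29, 5.77 and 5.65 in knockout-labelled arrays and 4.59 to 4.95 in wildtype arrays, with replicate 2 the lowest of all 8. Kcnip4 read 4.30, 5.17, 5.96 and 5.76 in knockout-labelled arrays against 4.88 to 5.29 in wildtype arrays. Kcnq3, a subunit of the neuronal channel that Kcnq5 also joins, was highest in replicate 1 of both groups, at 8.07 and 7.97.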
